A study of Mus musculus with 6 samples.

Results

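The keratin genes, which encode the intermediate filament proteins of epithelial cells, were examined in whole mammary tumours of mice dosed with TMP195 or its vehicle. Members were all genes whose array annotation names a single gene with a symbol of Krt followed by a number, and 52 of the 19937 genes on the array met this rule, each with 1 probe set. The tumours came from 6 female FVBN mice carrying the MMTV-PyMT transgene, a mammary-directed viral promoter joined to the polyoma middle T oncogene, which both groups share. The mice were 75 to 90 days old when their tumour burden was assessed before dosing. The TMP195 group (3 mice) received 50 mg/kg of TMP195, an inhibitor of the class IIa histone deacetylases, by intraperitoneal injection each day, and the DMSO group (3 mice) received the vehicle DMSO. The sources used here give the dosing as 5 days in one place and as 2 weeks in another. A single whole tumour per mouse was hybridised to an Affymetrix array, and each tumour of a group thus stands for its own animal. Transcript from tumour cells and from all other cells of the piece was measured together, so fewer cells of a type and less RNA per cell cannot be told apart.

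Keratins work in pairs of an acidic type I and a basic type II protein, which together build the filament. Glandular cells that line a lumen, the luminal cells of the breast, use Krt8 and Krt18 with Krt7 and Krt19. The basal, or myoepithelial, layer beneath them uses Krt5 with Krt14, together with Krt15 and Krt17. Krt6a, Krt6b and Krt16 are induced in wounded or rapidly dividing stratified epithelium. Krt1, Krt2 and Krt10 mark the upper layers of the epidermis, Krt4 and Krt13 mark mucosal linings, and further sets build the inner root sheath and the shaft of the hair. The mouse type I genes lie in a cluster on chromosome 11 and the type II genes in a cluster on chromosome 15, where the type I gene Krt18 sits beside its partner Krt8. Of the 52 members, 27 were on chromosome 11 and 25 on chromosome 15 in the RefSeq table.

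The 250 bases upstream of the RefSeq start are shown for 4 members on which the description below turns: Krt5, the basal keratin that varied most among the tumours, Krt7, a luminal keratin that varied in the opposite direction in the same tumour, and Krt8 and Krt18, the luminal partners that varied little. Coordinates are those of RefSeq's GRCm38.p6 table, chr15:101712906-101713155 on the minus strand for Krt5, chr15:101412153-101412402 on the plus strand for Krt7, chr15:102004343-102004592 on the minus strand for Krt8 and chr15:102027966-102028215 on the plus strand for Krt18. Each is written 5′ to 3′ toward the gene, and capitals mark matches on either strand to the AP-2 motif GCCNNNGGC or the GC box GGGCGG. Matches of the 2 motifs overlap at 1 place in Krt7.
Krt5: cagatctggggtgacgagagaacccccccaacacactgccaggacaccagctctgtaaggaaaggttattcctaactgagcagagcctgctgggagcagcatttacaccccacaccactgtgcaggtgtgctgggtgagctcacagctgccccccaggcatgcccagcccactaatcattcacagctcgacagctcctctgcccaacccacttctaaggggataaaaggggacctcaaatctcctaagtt
Krt7: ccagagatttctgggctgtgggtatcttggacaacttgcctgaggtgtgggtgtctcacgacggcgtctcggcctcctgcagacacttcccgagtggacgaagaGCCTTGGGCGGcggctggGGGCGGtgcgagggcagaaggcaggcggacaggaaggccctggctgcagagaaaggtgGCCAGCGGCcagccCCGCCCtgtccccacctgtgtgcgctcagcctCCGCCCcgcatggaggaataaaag
Krt8: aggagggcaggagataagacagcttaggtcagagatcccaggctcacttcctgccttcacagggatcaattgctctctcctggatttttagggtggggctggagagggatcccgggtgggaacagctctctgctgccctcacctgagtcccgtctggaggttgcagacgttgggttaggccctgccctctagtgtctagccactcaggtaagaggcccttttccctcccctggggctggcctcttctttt
Krt18: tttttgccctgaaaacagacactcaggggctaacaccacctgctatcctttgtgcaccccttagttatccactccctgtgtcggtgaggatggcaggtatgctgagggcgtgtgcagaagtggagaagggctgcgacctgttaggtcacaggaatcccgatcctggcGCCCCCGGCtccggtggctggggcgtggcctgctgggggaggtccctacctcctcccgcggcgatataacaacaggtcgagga

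The same windows were searched for 2 further motifs, the TATA box letters TATAAA and the AP-1 letters TGANTCA. Matches were counted on either strand and at any position of the window, so a TATAAA match need not be a working TATA box. RefSeq windows were found for 36 members, in 37 windows since Krt13 has 2. TATAAA was present in 17 of these 37 windows (45.9%), against 12.4% of all 32851 windows in the table. It was found in 7 of 8 windows of root sheath keratins, 6 of 10 of hair and nail shaft keratins 3 of 11 of epidermal and mucosal keratins and 1 of 3 of the remaining keratins, and in 0 of 3 luminal and 0 of 2 basal windows. GGGCGG was found in 2 of 37 keratin windows (5.41%), with 4 matches in Krt7 alone, against 32.7% of all windows. GCCNNNGGC was in 5 of 37 (13.5%, against 13.7% of all windows) and TGANTCA in 2 of 37 (5.41%, against 6.75%). Neither TATAAA nor TGANTCA occurs in the 4 windows printed above, which says only that these letters are not in them. These are letter matches and were not tied to any expression value.

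Values are log2 of the RMA signal of a probe set. Different probe sets bind their targets with different strength, so a value compares tumours for one gene and does not rank genes. As a guide to which probe sets carried signal, 1194 olfactory and vomeronasal receptor genes were used as genes that mammary tumours are not known to express. Their 95th percentile lay at 3.95, and a keratin with a mean over 6 tumours under that level is called dim here. By this guide 27 of the 52 keratins were dim and 25 were not, beside 5790 dim genes among all 19937. All 4 luminal and all 4 basal keratins were above the level, all 3 wound keratins were dim, and so were 7 of 12 epidermal and mucosal, 6 of 9 root sheath, 9 of 15 hair and nail shaft and 2 of 5 remaining keratins.

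Epcam, Cdh1, Lor and Ivl, chosen after their values were seen, describe the labelled tissue here and are no independent check of it. Epcam, an adhesion protein of epithelial cells, had 10.07, 10.03 and 10.10 in TMP195 tumours 1, 2 and 3, against 10.05, 10.10 and 10.14 in DMSO tumours 1, 2 and 3, and Cdh1, the epithelial cadherin, lay between 10.89 and 10.99 in all 6 tumours. Of 20 genes of epidermal cornification, which mark skin, 9 were dim, the envelope proteins Lor (mean 2.56) and Ivl (2.99) among them. The other 11 were not dim, among them the transglutaminase Tgm1 (mean 6.82) and the secreted epidermal protein Dmkn (5.14). A pair of tumours stood apart from the rest: TMP195 tumour 2 lay at least 1.5-fold above all 5 other tumours in 448 genes and below all of them in 266, and DMSO tumour 2 in 126 and 53 genes, whereas neither count passed 63 in any of the remaining 4 tumours. Fat and muscle transcripts differed widely between the pieces. Summed signal of 9 adipocyte genes was 4141, 257 and 883 in TMP195 tumours 1, 2 and 3, against 2232, 1289 and 6359 in DMSO tumours 1, 2 and 3. Summed signal of 10 skeletal muscle genes ran from 292 to 407 in TMP195 tumours, against 300, 3887 and 289 in DMSO tumours 1, 2 and 3.

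The comparison between the groups asked whether dosing with TMP195 altered the keratins. None of the 52 members passed an adjusted p of 0.05 in limma over all 19937 genes, and the smallest adjusted p was 1.00; the background share of all genes that passed was 0%. At an unadjusted p under 0.05 in limma there was 1 member, the lower Krt79, or 1.92% of the family, where 2.52% of all genes passed (1.34% lower and 1.18% higher). The groups did not overlap for 6 members, 3 higher (Krt1, Krt73 and Krt82) and 3 lower (Krt14, Krt79 and Krt87) under TMP195, or 11.5% of the family, where 6.68% of all genes showed no overlap (3.47% higher and 3.21% lower). No member differed by 1.5-fold or more, as 1.27% of all genes did. Of the 52 differences 25 were positive and 27 negative, with a median of -0.012 on the log2 scale, beside -0.0014 over all genes. The 28 type I keratins had a median difference of -0.025 and the 24 type II keratins one of 0.026. The median half-width of the 95% interval of a keratin's difference was 0.33, beside 0.30 over all genes.

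**Figure D1:**
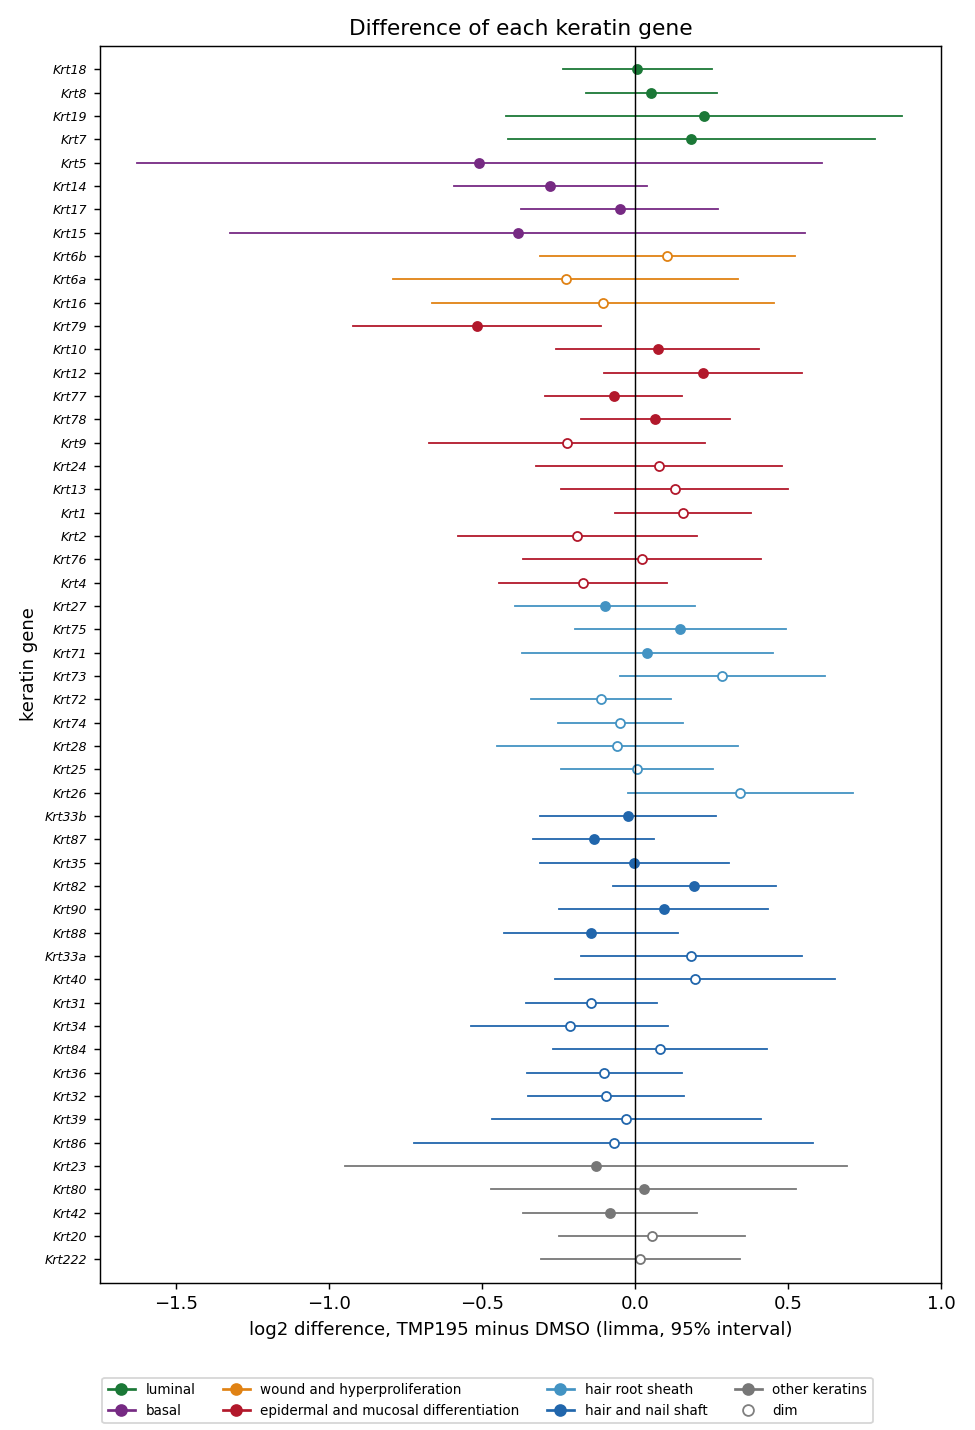
Log2 difference between TMP195 and DMSO tumours (x axis) for each of the 52 keratin genes (y axis, grouped by class), as points with limma's 95% interval; open points are dim members. The interval of Krt79 lies below 0, from -0.92 to -0.11, and the intervals of the other 51 keratins cross 0.

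Luminal keratins lay above the dim level, and the central partners Krt8 and Krt18 varied little. Krt18 stood at 11.23, 11.01 and 10.97 in TMP195 tumours 1, 2 and 3, against 11.01, 11.14 and 11.05 in DMSO tumours 1, 2 and 3 (log2 intensity). Krt8 had 10.86, 10.71 and 10.68 in TMP195 tumours 1, 2 and 3, against 10.66, 10.69 and 10.73 in DMSO tumours 1, 2 and 3. All 6 tumours of Krt8 thus lay within 0.20 and those of Krt18 within 0.26, with overlapping groups. Krt18 averaged 11.07 ± 0.14 in TMP195 tumours and 11.06 ± 0.066 in DMSO tumours (SD, n = 3 each), with a difference of 0.0072 (95% interval -0.24 to 0.25). Krt8 averaged 10.75 ± 0.094 in TMP195 tumours and 10.70 ± 0.037 in DMSO tumours (SD, n = 3 each), with a difference of 0.053 (interval -0.16 to 0.27). Both intervals stay within a change of 1.5-fold in either direction. The sign of Krt8 turned without TMP195 tumour 1 (-0.0012), and that of Krt18 turned without TMP195 tumour 1 (-0.071), DMSO tumour 1 (-0.020) or DMSO tumour 3 (-0.0015).

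The other luminal keratins, Krt19 and Krt7, spread more widely, with ranges of 1.13 and 1.02. For Krt7 this came from a single tumour, whereas for Krt19 the DMSO tumours alone ran from 9.39 to 10.01. Krt19 is a small type I keratin of ductal epithelium, and it had 9.87, 10.52 and 9.53 in TMP195 tumours 1, 2 and 3, against 9.39, 9.85 and 10.01 in DMSO tumours 1, 2 and 3. TMP195 tumour 2 was the highest, 0.51 above the next, and DMSO tumour 1 was the lowest. Krt7 stood at 8.99, 10.01 and 9.14 in TMP195 tumours 1, 2 and 3, against 9.23, 9.16 and 9.20 in DMSO tumours 1, 2 and 3. Krt7, a type II keratin of ducts and glands, was 0.78 higher in TMP195 tumour 2 than in any other tumour, while the other 5 lay between 8.99 and 9.23. The difference was 0.23 for Krt19 (interval -0.42 to 0.87) and 0.18 for Krt7 (interval -0.42 to 0.78). Both turned negative without TMP195 tumour 2, to -0.047 for Krt19 and -0.13 for Krt7. All 4 luminal keratins were thus higher on average under TMP195, with a median difference of 0.12, and none passed the test.

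**Figure D2:**
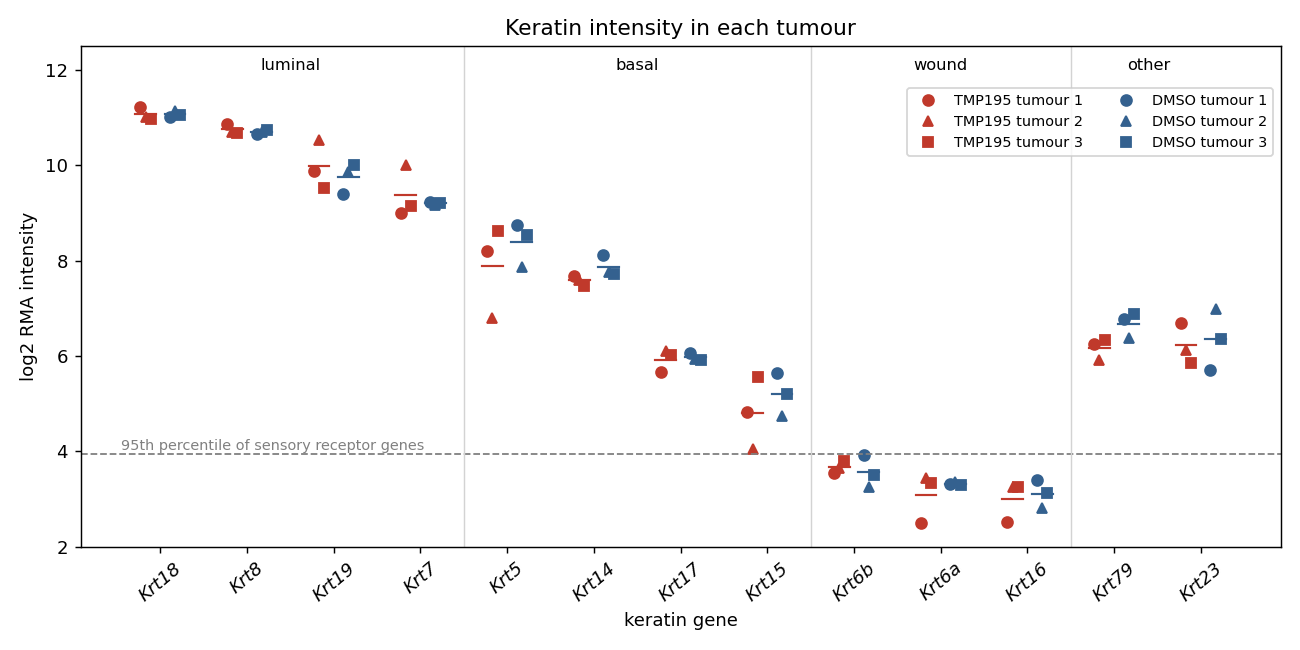
Log2 RMA intensity (y axis) of the luminal, basal and wound keratins and of Krt79 and Krt23 (x axis) in each tumour, with TMP195 tumours in red, DMSO tumours in blue, a symbol for each tumour number and a short line at each group mean. TMP195 tumour 2 is highest for Krt19, Krt7, Krt17 and Krt6a and lowest for Krt5, Krt15 and Krt79. The dashed line marks the dim level of 3.95.

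Basal keratins had lower means under TMP195 in all 4 members (median difference -0.33), none past the test. Krt5 stood at 8.21, 6.79 and 8.62 in TMP195 tumours 1, 2 and 3, against 8.74, 7.87 and 8.54 in DMSO tumours 1, 2 and 3. TMP195 tumour 2 lay 1.07 below the next lowest tumour, DMSO tumour 2, and TMP195 tumours 1 and 3 lay inside the range of the DMSO group. Krt5 had the widest range of any keratin, 1.95 or 3.86-fold, wider than 98.8% of all genes. Its difference was -0.51 (interval -1.63 to 0.61), and without TMP195 tumour 2 it turned to 0.031. Krt15, a type I keratin of basal cells and hair follicle stem cells, had the second widest range, 1.61. Krt15 was at 4.83, 4.04 and 5.56 in TMP195 tumours 1, 2 and 3, against 5.65, 4.73 and 5.20 in DMSO tumours 1, 2 and 3. Here too TMP195 tumour 2 was the lowest, by 0.70, and DMSO tumour 1 and TMP195 tumour 3 were the highest. The difference of Krt15 was -0.38 (interval -1.32 to 0.56), and it was 0.0019 without TMP195 tumour 2.

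Krt14, the type I partner of Krt5, was not at its lowest in TMP195 tumour 2. Krt14 stood at 7.68, 7.60 and 7.47 in TMP195 tumours 1, 2 and 3, against 8.11, 7.75 and 7.72 in DMSO tumours 1, 2 and 3. Every TMP195 tumour was below every DMSO tumour, and the nearest values, 7.68 in TMP195 tumour 1 and 7.72 in DMSO tumour 3, nearly touched. Krt14 averaged 7.58 ± 0.11 in TMP195 tumours and 7.86 ± 0.22 in DMSO tumours (SD, n = 3 each). The difference of -0.28 (interval -0.59 to 0.038) had an unadjusted p of 0.0758 in limma, and the difference was -0.15 without DMSO tumour 1. Krt17, a type I keratin of basal cells and of wounded skin, had 5.65, 6.11 and 6.01 in TMP195 tumours 1, 2 and 3, against 6.07, 5.94 and 5.92 in DMSO tumours 1, 2 and 3. TMP195 tumour 2 was the highest for Krt17, and only TMP195 tumour 1 stood off, 0.26 below the next. The difference of Krt17 was -0.051 (interval -0.37 to 0.27), which turned to 0.084 without TMP195 tumour 1.

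Genes of the basal layer other than keratins were set beside these values. Trp63, which encodes the basal transcription factor p63, stood at 7.11, 8.23 and 7.40 in TMP195 tumours 1, 2 and 3, against 7.65, 6.65 and 7.25 in DMSO tumours 1, 2 and 3. TMP195 tumour 2 had the highest Trp63 and DMSO tumour 2 the lowest, and the difference of 0.40 was 0.069 without TMP195 tumour 2. In the list of 12 myoepithelial genes that tumour was the highest for 4, Trp63 included, and the lowest for 2, the smooth muscle genes Myh11 and Cnn1. Myh11, a smooth muscle myosin, stood at 6.11, 5.43 and 5.64 in TMP195 tumours 1, 2 and 3, against 5.74, 5.79 and 6.51 in DMSO tumours 1, 2 and 3. Of the 12 genes, 6 were higher and 6 lower under TMP195, with a median difference of 0.042 and none past the test over all genes. Lgr5, a Wnt pathway receptor of stem and progenitor cells, stood at 5.31, 5.45 and 5.13 in TMP195 tumours 1, 2 and 3, against 4.89, 4.47 and 5.12 in DMSO tumours 1, 2 and 3. Its difference of 0.47 ± 0.18 (SE) had an unadjusted p of 0.0345 in limma, and it was 0.29 without DMSO tumour 2 and 0.28 with array weights. Summed signal of the myoepithelial list was 3824, 4074 and 3296 in TMP195 tumours 1, 2 and 3, against 3745, 3208 and 4155 in DMSO tumours 1, 2 and 3. Such a sum mostly follows the brightest probe sets of the list, here Vim (mean of 10.73 on the log2 scale) and then Egfr and Acta2. It is therefore not a measure of the amount of basal layer in a tumour. Summed adipocyte signal was lowest in TMP195 tumour 2 too, and the part of tissue makeup in the Krt5 and Krt15 values was not tested.

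**Figure D3:**
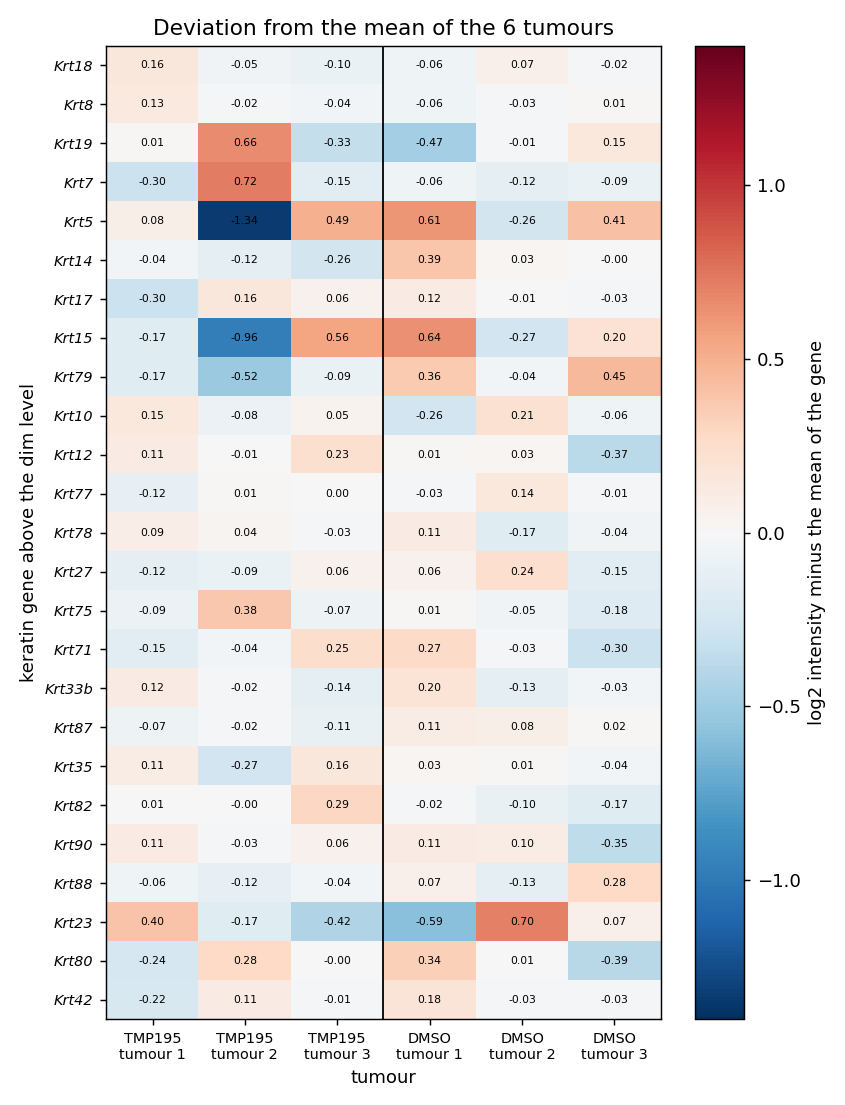
Log2 intensity minus the gene's mean over the 6 tumours (colour and printed value) for the 25 keratins above the dim level (rows) in each tumour (columns, TMP195 tumours left of the black line and DMSO tumours right of it). TMP195 tumour 2 stands at -1.34 for Krt5 and 0.72 for Krt7, while Krt8 and Krt18 stay close to 0 in every tumour.

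Wound keratins were dim in both groups. Krt6b lay between 3.26 and 3.92 over the 6 tumours, and its difference was 0.10 (interval -0.31 to 0.52). Krt6a was at 2.50, 3.43 and 3.34 in TMP195 tumours 1, 2 and 3, against 3.31, 3.35 and 3.30 in DMSO tumours 1, 2 and 3. Krt16 stood at 2.53, 3.25 and 3.24 in TMP195 tumours 1, 2 and 3, against 3.40, 2.81 and 3.13 in DMSO tumours 1, 2 and 3. TMP195 tumour 1 was the lowest for both Krt6a and Krt16, and without it their differences of -0.23 and -0.11 turned to 0.067 and 0.13. Krt6a and Krt6b encode nearly identical proteins, so their probe sets may share transcripts, and the same holds for neighbouring hair keratins such as Krt33a and Krt33b and for the pseudogene of Krt8 that RefSeq lists. Cross-hybridisation was not tested.

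Krt79 was the epidermal keratin that differed most. In mouse skin it marks cells of the hair canal and the sebaceous duct. Krt79 stood at 6.25, 5.90 and 6.33 in TMP195 tumours 1, 2 and 3, against 6.78, 6.38 and 6.87 in DMSO tumours 1, 2 and 3. Every TMP195 tumour was below every DMSO tumour, with TMP195 tumour 3 and DMSO tumour 2 nearest to each other. Krt79 averaged 6.16 ± 0.23 in TMP195 tumours and 6.68 ± 0.26 in DMSO tumours (SD, n = 3 each), a difference of -0.52 (interval -0.92 to -0.11) or 0.699-fold, with an unadjusted p of 0.0196 and an adjusted p of 1.00 in limma. Leaving out single tumours gave differences from -0.67 to -0.39 and unadjusted p values from 0.00522 (without DMSO tumour 2) to 0.068. That p was 0.056 without TMP195 tumour 2, 0.0634 without DMSO tumour 1 and 0.068 without DMSO tumour 3.

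Beside Krt79, the 20 measured genes of epidermal cornification were 8 higher and 12 lower, with a median difference of -0.047 and none past the test. Tgm1, the transglutaminase that cross-links the cornified envelope, differed by -0.51 ± 0.19 (SE, unadjusted p = 0.0311), and Dmkn, the secreted epidermal protein dermokine, by -0.33 ± 0.17. Without DMSO tumour 2 Tgm1 differed by -0.34, and without TMP195 tumour 2 Dmkn differed by -0.18. Tgm1 stood at 6.49, 6.41 and 6.80 in TMP195 tumours 1, 2 and 3, against 7.05, 7.44 and 6.76 in DMSO tumours 1, 2 and 3, so its groups overlapped. Summed signal of this list ran from 456 to 597 in TMP195 tumours and from 555 to 715 in DMSO tumours. All 9 adipocyte genes had lower means under TMP195 (summed signal 257 to 4141 in TMP195 tumours and 1289 to 6359 in DMSO tumours). Their part in the Krt79 difference was not tested.

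The remaining epidermal and mucosal keratins differed little. The epidermal pair was split by this guide: Krt10 lay above the dim level, from 4.72 to 5.20, and Krt1 below it. Krt1 stood at 3.22, 3.10 and 3.29 in TMP195 tumours 1, 2 and 3, against 2.96, 3.08 and 3.09 in DMSO tumours 1, 2 and 3. These groups did not overlap, but Krt1 was dim and its difference was 0.15 (interval -0.068 to 0.38). Krt12, a keratin of the cornea, differed by 0.22 (interval -0.10 to 0.55), and DMSO tumour 3 was its lowest tumour at 4.15. Without that tumour Krt12 differed by 0.089. Krt2, Krt4, Krt9, Krt13, Krt24, Krt76, Krt77 and Krt78 had differences between -0.22 and 0.13, and their groups overlapped.

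Hair keratins made up 24 of the 52 members, 9 of the root sheath and 15 of the hair and nail shaft. Over the 9 root sheath genes 5 differences were positive and 4 negative, and over the 15 shaft genes 5 were positive and 10 negative. Krt26 and Krt73, both keratins of the root sheath, were the highest of the family in difference. Krt26 stood at 2.18, 2.40 and 2.58 in TMP195 tumours 1, 2 and 3, against 2.27, 2.06 and 1.81 in DMSO tumours 1, 2 and 3. The groups of Krt26 overlapped and its difference was 0.34 (interval -0.023 to 0.71), or 0.22 without DMSO tumour 3. Krt73 stood at 4.02, 3.90 and 3.82 in TMP195 tumours 1, 2 and 3, against 3.76, 3.78 and 3.34 in DMSO tumours 1, 2 and 3. DMSO tumour 3 was the lowest of all, and the difference of 0.28 (interval -0.049 to 0.62) was 0.14 without it. Both genes were dim.

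Among shaft keratins, Krt82 of the hair cuticle and Krt87 had groups without overlap, in opposite directions. Krt82 stood at 4.42, 4.41 and 4.70 in TMP195 tumours 1, 2 and 3, against 4.40, 4.31 and 4.24 in DMSO tumours 1, 2 and 3. Krt87 stood at 5.20, 5.26 and 5.17 in TMP195 tumours 1, 2 and 3, against 5.38, 5.36 and 5.30 in DMSO tumours 1, 2 and 3. The 6 values of Krt87 lay within 0.21, the third narrowest range of the family, and its difference was -0.14 (interval -0.33 to 0.061). Krt82 differed by 0.19 (interval -0.071 to 0.46), with TMP195 tumour 3 the highest, and by 0.099 without that tumour. Krt31 and Krt34, type I keratins of the hair cortex, were dim and differed by -0.14 (interval -0.36 to 0.071) and -0.21 (interval -0.54 to 0.11). Krt34 differed by -0.12 without TMP195 tumour 3 and by -0.13 without DMSO tumour 1. Krt86, also a hair cortex keratin, lay between 0.40 and 1.37, and its wide range of 0.97 lay wholly below the dim level. Of 13 hair follicle genes that are not keratins, 9 were higher and 4 lower, with none past the test, and Foxn1, the transcription factor that drives hair keratin genes, lay between 3.86 and 4.41. Lef1, a Wnt pathway factor on that list, stood at 4.12, 6.21 and 4.15 in TMP195 tumours 1, 2 and 3, against 3.88 to 4.0 in DMSO tumours, a difference of 0.87 that was 0.18 without TMP195 tumour 2.

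Krt23, a type I keratin of simple epithelia, is known from human pancreatic cancer cells as a gene induced by histone deacetylase inhibitors. Krt23 stood at 6.68, 6.12 and 5.86 in TMP195 tumours 1, 2 and 3, against 5.70, 6.99 and 6.36 in DMSO tumours 1, 2 and 3. The groups overlapped throughout, with DMSO tumour 2 the highest and DMSO tumour 1 the lowest, and the range of 1.29 was the third widest of the family. The difference was -0.13 (interval -0.95 to 0.69), and it turned to 0.19 without DMSO tumour 2 and to 0.051 without TMP195 tumour 3. DMSO tumour 2 is also the tumour with the most muscle transcript, where all 10 muscle genes were at their highest and their summed signal was 3887, and their part in the Krt23 value was not tested. Krt80, a keratin of many epithelia, Krt42, Krt20 of the gut and urothelium, and Krt222 had differences between -0.081 and 0.055, with overlapping groups.

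Tumours also differed in how often they were at the extreme of the family. DMSO tumour 1 was the highest of the 6 tumours for 21 of 52 keratins (40.4%), and for 15.3% of all genes. Above the dim level it was the highest for 10 of 25 keratins, among them Krt5, Krt14, Krt15 and Krt80, and for 11.6% of all genes above that level. TMP195 tumour 2 was the highest for 9 and the lowest for 9 of the 52, and it was so for 25.4% and 22.4% of all genes. By size, TMP195 tumour 2 exceeded all others by at least 1.5-fold in 1 keratin, Krt7, and lay below all others by that much in 2, Krt5 and Krt15, which is 1.92% and 3.85% of the family, beside 2.25% and 1.33% of all genes. TMP195 tumour 1 lay below all others by that much in Krt6a, and DMSO tumours 1, 2 and 3 and TMP195 tumour 3 did so in no keratin in either direction.

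Genes that anchor or control keratin filaments were compared last. Of 12 desmosome genes, the plaques that tie keratin filaments to the cell border, 6 were higher and 6 lower (median difference 0.0092). Ppl, the plaque linker periplakin, was lower in every TMP195 tumour, with 7.43, 7.57 and 7.48 in TMP195 tumours 1, 2 and 3, against 7.80, 7.60 and 7.62 in DMSO tumours 1, 2 and 3, a difference of -0.18 ± 0.098 (SE) that was -0.12 without DMSO tumour 1. Pkp3, plakophilin 3, differed by -0.12 ± 0.091, with overlapping groups. Pkp1, plakophilin 1 of stratified epithelium, stood at 5.87, 7.69 and 6.26 in TMP195 tumours 1, 2 and 3, against 6.38, 6.15 and 6.18 in DMSO tumours 1, 2 and 3. TMP195 tumour 2 was again apart, and the difference of 0.37 turned to -0.17 without it. Of 8 genes of hemidesmosomes and their linkers, 4 were higher and 4 lower (median -0.012). Col17a1, a collagen of the hemidesmosome, differed by -0.25 ± 0.20, by -0.10 without TMP195 tumour 2 and by -0.089 without DMSO tumour 1. Lama3, a laminin chain, differed by 0.28 ± 0.29 and by 0.053 without TMP195 tumour 2. Lamb3, which joins Lama3 in the laminin beneath basal cells, differed by 0.21 ± 0.23 and by -0.073 without TMP195 tumour 2.

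Of 17 modifiers and regulators of keratins 7 were higher and 10 lower (median -0.013). Ovol2, an epithelial transcription factor, differed by -0.13 ± 0.093 (SE) with overlapping groups, and Tchp, the keratin-binding protein trichoplein, was lower in every TMP195 tumour by a small difference of -0.11 ± 0.087 (SE). The nearest Tchp values, 5.979 in TMP195 tumour 2 and 5.980 in DMSO tumour 1, all but touched, and 6.68% of all genes showed no overlap. Of 15 other luminal genes 7 were higher and 8 lower (median -0.0055), and none passed the test. Cldn4, a tight junction claudin, had 8.53, 8.28 and 8.95 in TMP195 tumours 1, 2 and 3, against 9.17, 9.21 and 8.81 in DMSO tumours 1, 2 and 3, with TMP195 tumour 2 the lowest. Its difference was -0.48 ± 0.19 (SE, unadjusted p = 0.0425 in limma), and the groups overlapped. The difference of Cldn4 was -0.33 without TMP195 tumour 2 and -0.26 with array weights. Pgr, the progesterone receptor of hormone-sensing luminal cells, was dim and differed by -0.46 ± 0.20. None of the genes on these lists passed the test over all genes, of which 0% passed. The 9 salivary gland genes were 7 higher and 2 lower (summed signal 1381 to 3453 in TMP195 tumours and 1340 to 2149 in DMSO tumours). This sum mostly follows the bright Aqp5 and Dcpp1. Dcpp1 stood at 8.48, 6.35 and 10.61 in TMP195 tumours 1, 2 and 3, against 7.13, 8.32 and 9.21 in DMSO tumours 1, 2 and 3.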

How the data were processed

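Per the labels' protocols and the design text, RNA of snap-frozen whole tumours was purified with a Qiagen RNeasy kit, treated with DNase and biotin-labelled. The deposited values are array signal intensity for 27359 probe sets, which the authors made by RMA with Affymetrix Power Tools, according to the submitters' processing notes. Versions, filters and genome build were not stated in what was used here. The scale is not stated. It was taken as linear, since all values exceed 0 and the column medians run from 44.8 to 46.4, whereas RMA gives log2 values. Usual RMA quantile normalizes arrays, so a change shared by most genes would not be seen. No scanner files were used here.

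Probe sets were named by the platform annotation (21784 with 1 symbol, 1620 with several and 3955 with none), the brightest standing for a gene. Intensities were put on the log2 scale and modelled in R 4.3.3 using limma 3.58.1 (lmFit, eBayes, two-sided, no covariate, TMP195 minus DMSO), with Benjamini-Hochberg adjustment over 19937 genes and no filter on dim genes. Python 3.11.15 with pandas 2.3.3 and matplotlib 3.10.9 handled tables and plots. The fit was also run on simulated data with values drawn independently for each gene and tumour, and nothing above rests on that run. An exact permutation of 3 against 3 tumours cannot go below p = 0.10 and was not used. The number of arrays limits the precision. The labels name no batch.

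Members, keratin classes and gene lists were chosen with earlier results of these data known. The text names all luminal, basal and wound keratins, the 10 keratins with the smallest p, the 10 with the widest range, and, of the other lists, up to 4 genes in order of p. Epcam, Cdh1, Lor, Ivl, Cnn1, Krtdap and Foxn1 and the keratins named beyond that rule were chosen after their values were seen. Vim, Acta2 and Dcpp1 are named as bright members of their lists. Alternatives tried were a replicate block, another variance prior, median centring, cyclic loess, an intensity filter, all probe sets, averaged probe sets, array weights, an offset of 16, an adjusted p of 0.10, leaving out each tumour and leaving out both tumours numbered 2.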

Additional observations from a re-analysis of the deposited data

How the results depend on the processing

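No keratin passed an adjusted p of 0.05 in limma under any of the 17 alternatives run, nor at 0.10; the replicate block gave 0 members too. At an unadjusted p under 0.05 there was 1 keratin, Krt79. There were 2 of 52 with cyclic loess (Krt26 and Krt79, beside 2.8% of all genes), 6 with array weights (Krt12, Krt26, Krt33a, Krt73, Krt79 and Krt82, beside 4.7% of all genes), 2 with both tumours numbered 2 left out (Krt33a and Krt79, beside 3.72%), and from 0 to 2 with single tumours left out: 0 without DMSO tumour 3, Krt33a alone without TMP195 tumour 2, Krt26 alone without DMSO tumour 1, and Krt26 and Krt79 without TMP195 tumour 1, beside 2.52% to 3.36% of all genes. The cause was not tested. The family's median difference of -0.012 ran from -0.078 to 0.033 with single tumours left out, the lowest without DMSO tumour 3. Of 343 recomputed differences of the 22 keratins named by rule, 320 kept their sign and 23 turned, and of 224 for 16 other named genes, 6 turned. The replicate block, the variance prior, the intensity filter, all probe sets and averaged probe sets could not change a keratin's difference. Signs kept under these settings are in the count but say nothing about stability. For the other genes the same holds for the block, the prior and all probe sets. Array weights turned Krt19 -0.052, Krt86 0.25. Leaving out both tumours numbered 2 turned Krt7 -0.15, Krt6b -0.042, Krt23 0.24, Krt86 0.22, Trp63 -0.20, Pkp1 -0.21, Lamb3 -0.035, Lama3 -0.20. With single tumours left out the differences that turned ran as follows: Krt18 from -0.071 to 0.058, Krt8 from -0.0012 to 0.085, Krt17 from -0.14 to 0.084, Krt6a from -0.40 to 0.067, Krt16 from -0.25 to 0.13, Krt19 from -0.047 to 0.45, Krt7 from -0.13 to 0.38, Krt5 from -0.88 to 0.031, Krt15 from -0.76 to 0.0019, Krt86 from -0.27 to 0.20, Pkp1 from -0.17 to 0.74, Lamb3 from -0.073 to 0.39, Krt23 from -0.45 to 0.19, Krt6b from -0.047 to 0.29.

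Replicate numbers did not pair the tumours. Deviations from the group means, across genes, correlated at -0.27, -0.086 and -0.09 between tumours of the same number, no tumour correlated best with its own number, and with the replicate block there was 1 keratin, Krt79 (p = 0.00373), at an unadjusted p under 0.05, beside 1.99% of all genes. The offset of 16 and median centring turned no named keratin, and the median of all genes moved to 0.014 with median centring. Dim keratins have little signal over background, which limits any statement about them.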

Other observations

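Genes named after keratins but left out of the family were set beside it. Of 44 keratin-associated protein genes (Krtap), which encode the matrix between hair keratin filaments, 28 were dim by the same guide, beside 5790 of all 19937 genes. Under TMP195, 22 of the Krtap genes were higher and 22 lower. None of them passed limma's test over all genes (1 was at an unadjusted p under 0.05, as 2.52% of all genes were). Their median difference was 0.0045 on the log2 scale. Krtdap, a gene of the upper epidermis, was dim, and of 2 Krtcap genes, neither dim, 1 was higher and 1 lower.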
